A study of Homo sapiens with 60 samples.

Results

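Nuclear receptors are transcription factors that share a DNA-binding domain and, in most members, a pocket that binds a small lipophilic ligand. The genes described here are 31 nuclear receptor genes named by symbol: the xenobiotic sensors NR1I2 and NR1I3, the oxysterol receptor NR1H2, the retinoid X and retinoic acid receptors, the PPAR genes, the thyroid hormone receptors, the vitamin D receptor, the steroid receptors, the REV-ERB genes, RORA, and orphan receptors. Each symbol matched 1 Ensembl identifier among the 60675 genes of the count table. A gene was taken as detected when at least 3 of the 60 libraries held at least 10 counts of it. By that rule 28 of the 31 genes were detected in HepG2, a human hepatocellular carcinoma line, and the same 28 passed the filter of the test across all genes, which kept 16093.

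In hepatocytes these proteins read out fatty acids, sterols, bile acids, drugs, thyroid hormone, retinoids, glucocorticoid and the time of day. Many of them bind DNA as a heterodimer with a retinoid X receptor on repeats of the sequence AGGTCA, while the steroid receptors bind as homodimers and several orphan receptors bind as monomers. The mRNA level measured here is the level of the receptor's transcript, not of its protein, ligand or activity.

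The cells were treated for 24 h in 20 groups of 3 libraries each. The vehicle group carried 0.1% DMSO by its labels, while the text of the series gives 2%. Wortmannin, an inhibitor of phosphoinositide 3-kinases used as the positive control, was given at 10 µM. The remaining 18 groups received a water extract at 500, 100 or 20 µg/mL: Paeoniae Radix (here peony), Angelicae Gigantis Radix (angelica), Panax Ginseng (ginseng), Glycyrrhizae Radix (licorice root), Atractylodis Rhizoma (Atractylodes) or Poria Cocos (Poria). Whether the extracts also carried DMSO is not given in the sources used here, and the sample labels list no DMSO share for wortmannin. All titles name 1 batch, but the descriptions number the libraries in sets: wortmannin in set 1, Poria with Atractylodes in set 2, licorice with ginseng in set 3, angelica with peony in set 4, and vehicle under a label of its own. A difference of wortmannin or an extract from vehicle therefore cannot be told apart from a difference between sets or in solvent. In contrast, 500 against 20 µg/mL of 1 extract lies within a set and uses no vehicle library. Separate cultures are not stated for the libraries within a group, so p-values measure the spread between these libraries, which may be technical.

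Total counts ran from 20.9 M to 33.4 M per library. Levels are given as CPM, the counts of a gene per 1 M counts of its library, and 3 counts correspond to 0.09 to 0.144 CPM. The hepatocyte and hepatoma markers ALB (10270 to 16910 CPM), AFP and HNF4A (289.1 to 354.9 CPM) were high in every library. PTPRC and KRT5 were at 0 in every library, and CD3E, HBB, COL1A2, DCN, LUM and GATA3 never exceeded 3 counts, whereas LYZ (1284 to 2807 CPM) and ACTA2 (32.4 to 77.4 CPM) were present. Mitochondrial transcripts took 10.54% to 11.849% of the counts in vehicle, 11.028% to 13.719% in wortmannin and 11.584% to 13.096% in Poria 500 µg/mL, and their part in the results was not tested.

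RARB, ESRRG and NR4A2 were not detected: their highest counts in any library were 5, 1 and 4. RARB is a retinoic acid receptor, ESRRG an estrogen-related orphan receptor and NR4A2 an immediate-early orphan receptor. ESR1, estrogen receptor alpha, was at the edge of detection. It reached 10 counts in 12 of the 60 libraries, and wortmannin was the only group in which all 3 libraries did. NR3C2, the mineralocorticoid receptor, reached 10 counts in 48 libraries and NR1I3, the constitutive androstane receptor, in 58, while the other 25 detected genes did so in all 60.

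Levels were compared between genes as CPM per kilobase of exon in the vehicle libraries. NR2F6, an orphan receptor of the COUP-TF family, was highest at 31.8 ± 1.29 (SD, n = 3) CPM per kb, followed by the germ cell nuclear factor NR6A1 at 12.2 ± 0.274 and by RXRB at 8.63 ± 0.461. ESRRA, NR1D1, RXRA, PPARD and NR2F1 came next between 6.34 and 7.28 CPM per kb, where the mean ± SD of neighbours in the order overlapped. The same held for PPARA, PPARG, NR3C1 and THRA, at 3.82, 3.8, 3.63 and 3.62 CPM per kb. A gap then separated NR1D2 at 2.85 ± 0.0981 CPM per kb from NR4A1 at 0.907 ± 0.0275. At the low end stood RORA (0.615), NR5A2 (0.409), VDR (0.362), NR1I3 (0.287), RARG (0.183), NR3C2 (0.0804) and, lowest of the detected genes, ESR1 (0.0185 CPM per kb). The undetected RARB lay above ESR1, at 0.0338 CPM per kb. Several receptor genes overlap a coding gene on the other strand (THRA with NR1D1, NR1I3 with TOMM40L, RXRB with SLC39A7, ESRRA with TRMT112, NR2C2 with MRPS25, NR1D2 with NKIRAS1, ESR1 with SYNE1). Whether the counting used strand is not given in the sources used here, so their counts are uncertain to that extent.

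**Figure D1:**
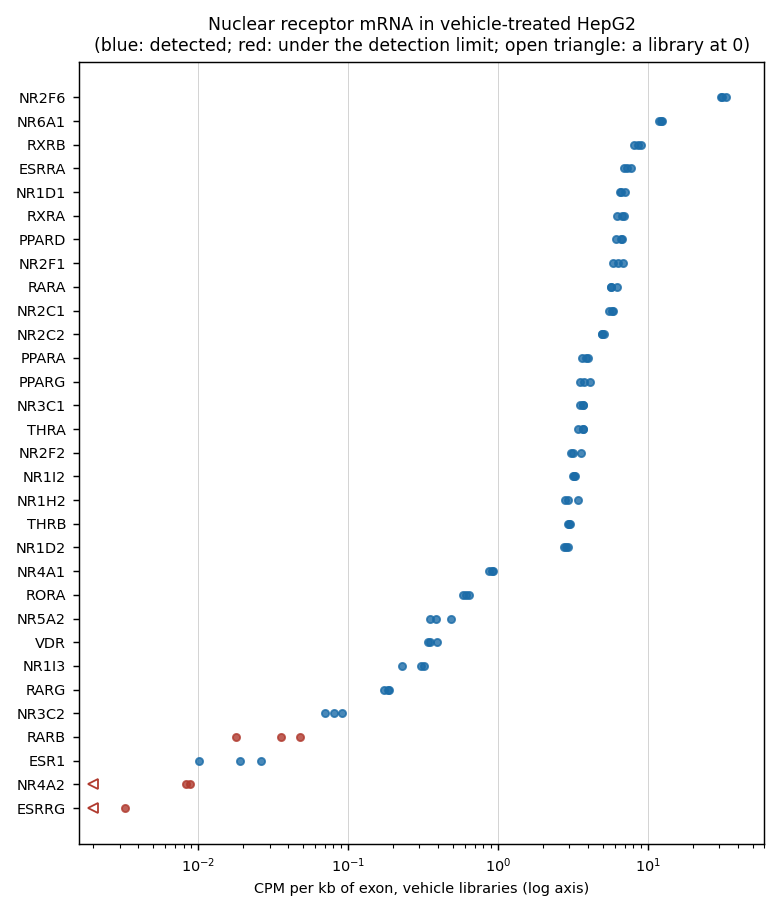
Level of each of the 31 receptor genes in the 3 vehicle libraries, in CPM per kb of exon on a log axis; each point is a library, blue marks detected genes, red the genes under the detection limit and an open triangle a library at 0. NR2F6 stands highest at a mean of 31.8 CPM per kb. Near the bottom RARB, which was not detected, is at 0.0338 and ESR1, which was, at 0.0185 CPM per kb. The undetected NR4A2 and ESRRG are lowest, at 0.00575 and 0.00108 CPM per kb.

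Of the 28 genes tested, 24 differed among the 20 groups (edgeR quasi-likelihood F test, adjusted p under 0.05), against 75.5% of all genes. The 4 that did not pass were ESR1, NR1I3, NR2C1 and RARG. Every comparison with vehicle below uses the same 3 vehicle libraries, so these comparisons are not independent of each other and their values are given side by side only. At 500 µg/mL, the number of receptor genes called against vehicle was 17 for Poria (all genes 47.6%), 11 for licorice (all genes 32.4%), 9 for angelica (all genes 18.9%), 8 for peony (all genes 19.7%), 6 for ginseng (all genes 10.2%) and 0 for Atractylodes (all genes 0.889%). Wortmannin called 15 (all genes 46.3%). As a share of the 28, these counts are 60.7%, 39.3%, 32.1%, 28.6%, 21.4%, 0% and 53.6%. The ginseng count fell in several fits without 1 library, each with fewer libraries than the main fit. It was 1 without ginseng replicate 2, 2 without ginseng replicate 3 or vehicle replicate 3, and 3 without vehicle replicate 2. The count over all genes moved with it, from 1648 to 856 and 1005 without ginseng replicate 2 or 3 and to 1017 and 890 without vehicle replicate 2 or 3. For Atractylodes the 143 genes called over all became 364 without Atractylodes replicate 1, 13 and 12 without its replicate 2 or 3, and 13 and 32 without vehicle replicate 2 or 3, and for angelica the 3045 became 1800 without vehicle replicate 3. For peony the receptor gene count was 5 instead of 8 without peony replicate 2 or replicate 3.

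**Figure D2:**
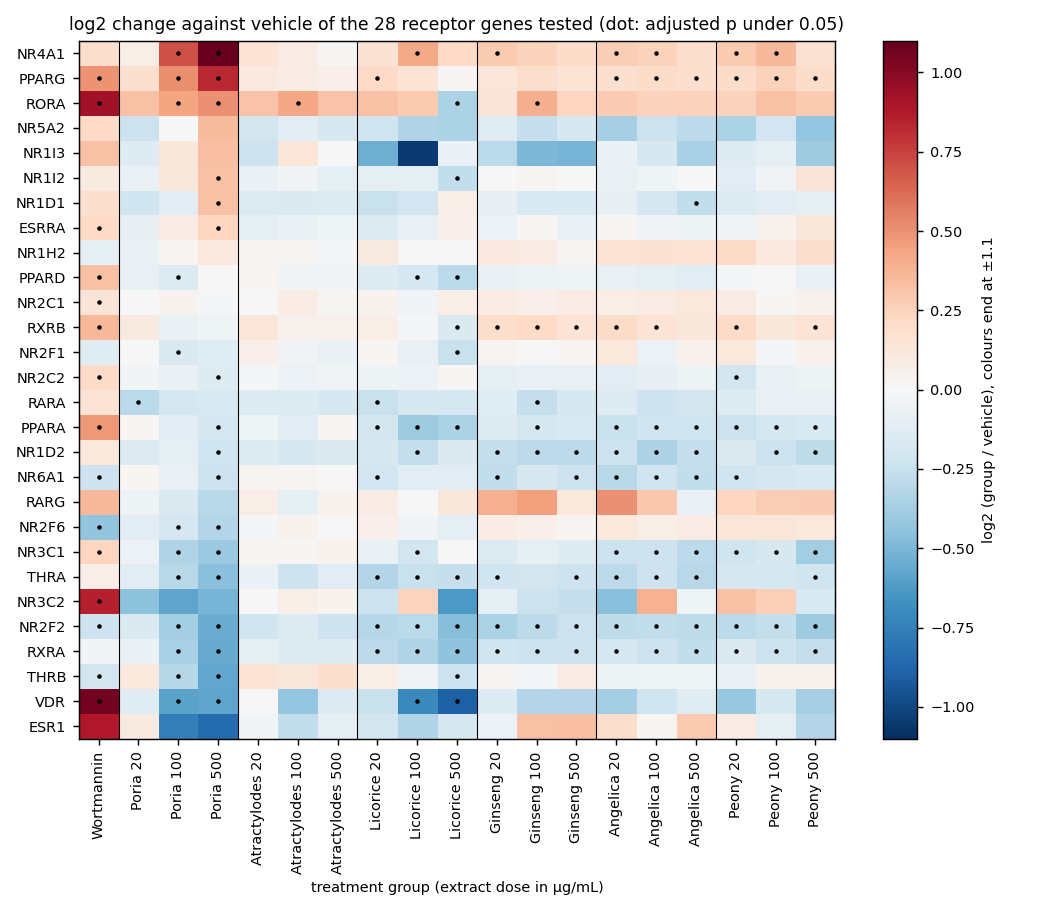
Fitted log2 change of the 28 receptor genes tested (rows, ordered by Poria 500 µg/mL) in each of the 19 treatment groups (columns) against the same 3 vehicle libraries; colours end at 1.1 in either direction and a dot marks an adjusted p under 0.05. NR4A1 at the top of the Poria 500 column is at 1.53, and the wortmannin column holds 11 called rises and 4 called falls.

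Against vehicle, which lies outside its set, 11 receptor genes were higher with wortmannin (all genes 22.4%) and 4 were lower (all genes 24%). The median log2 change of the 28 was 0.20, beside 0.01 over all genes, while the median absolute change (0.22) was about that of all genes (0.23). VDR, the vitamin D receptor, was at 1.99, 2.22 and 1.95 CPM in vehicle and at 5.07, 4.28 and 3.39 CPM with wortmannin. Every wortmannin library was above every vehicle library, and the log2 change was 1.06 ± 0.17 (SE; adjusted p = 1.13e-06, edgeR). RORA, a constitutively active activator of clock and lipid genes, was at 10.5, 9.91 and 11 CPM in vehicle and 19.4, 19.6 and 19.8 CPM with wortmannin. Its level was the highest of any group, and the log2 change was 0.92 ± 0.11 (adjusted p = 3.56e-10, edgeR). NR3C2 went from 0.531, 0.6 and 0.464 CPM to 0.966, 0.993 and 0.887 CPM, a log2 change of 0.85 ± 0.27 (adjusted p = 0.00679, edgeR); the groups did not overlap, but the adjusted p was 0.0511 when no filter on low counts was applied.

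The fatty acid receptors also rose with wortmannin. PPARG was at 15.9, 16.9 and 18.8 CPM in vehicle and at 23.7, 23 and 25.1 CPM with wortmannin, a log2 change of 0.49 ± 0.066 (adjusted p = 1.55e-08, edgeR). PPARA, the main receptor for fatty acid oxidation genes in hepatocytes, was at 48.4, 52.4 and 50.8 CPM in vehicle and at 70.8, 68.2 and 69.6 CPM with wortmannin. Its wortmannin libraries were above every other of the 60 libraries, with a log2 change of 0.48 ± 0.059 (adjusted p = 1.71e-09, edgeR). PPARD rose by a log2 of 0.32 ± 0.053 and RXRB, a heterodimer partner, by 0.36 ± 0.050, from 31.9, 34 and 35.5 CPM to 43.2, 41.6 and 44.1 CPM. RXRA, the other detected partner, was at 71, 71.8 and 70.3 CPM with wortmannin, inside the vehicle range of 68.9 to 77.4 CPM, and was not called. NR3C1, the glucocorticoid receptor, ESRRA, an estrogen-related receptor of mitochondrial genes, and the testicular orphan receptors NR2C1 and NR2C2 made up the rest of the 11, with log2 changes of 0.14 to 0.24; the call of NR2C1 was lost without vehicle replicate 2 (adjusted p = 0.056), vehicle replicate 3 (0.0948), wortmannin replicate 1 (0.0901) or wortmannin replicate 3 (0.0696).

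The 4 genes that fell with wortmannin were NR2F6, NR2F2, NR6A1 and THRB. NR2F6 was at 84, 88.9 and 82.2 CPM in vehicle and at 65.7, 57 and 64.5 CPM with wortmannin, with no overlap, and the log2 change was -0.43 ± 0.071 (adjusted p = 1.37e-06, edgeR). NR2F2 (COUP-TFII), NR6A1 and THRB changed by -0.23, -0.23 and -0.21 on the log2 scale. Without vehicle replicate 3 the adjusted p of NR2F2 was 0.0955, and without wortmannin replicate 1 that of THRB was 0.0657.

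Poria changed more receptor genes with rising dose. Against vehicle 12 of 28 were called at 100 µg/mL (all genes 30.5%; 8 to 11 when 1 library was left out), and 17 at 500 µg/mL, 6 of them higher and 11 lower (all genes 23.9% and 23.7%). Between 500 and 20 µg/mL 15 of 28 were called, 6 higher and 9 lower (all genes 43.5%, with 22.3% higher and 21.2% lower). The median log2 change of the 28 between these doses was -0.09 beside -0.01 over all genes, and the median absolute change was 0.29 beside 0.22.

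NR4A1 had the largest change of the 28 genes. It encodes Nur77, an orphan receptor without a classical ligand pocket whose gene is a textbook immediate-early gene, and it lies at chr12:52022832-52059507 on the plus strand (GRCh38). NR4A1 was at 6.7, 6.39 and 6.76 CPM in vehicle, 5.43, 6.8 and 8.39 CPM at 20 µg/mL Poria, 9.02, 11.4 and 10.4 CPM at 100 µg/mL and 18.7, 17.4 and 16.8 CPM at 500 µg/mL. The 3 dose groups did not overlap, and no other of the 60 libraries reached the level of the 500 µg/mL group. From 20 to 500 µg/mL the log2 change was 1.45 ± 0.083 (2.74-fold, adjusted p = 2.80e-20, edgeR), and against vehicle 1.53 ± 0.083 (2.88-fold, adjusted p = 2.54e-21).

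PPARG, the adipogenic fatty acid receptor, lies at chr3:12287368-12434356 on the plus strand (GRCh38). It was at 17.8, 19.4 and 20.3 CPM at 20 µg/mL Poria, 21.6, 23.4 and 25 CPM at 100 µg/mL and 25.1, 29 and 31.4 CPM at 500 µg/mL. Each group lay above the one before it, with a log2 change of 0.65 ± 0.065 from 20 to 500 µg/mL (adjusted p = 6.57e-12, edgeR) and of 0.83 ± 0.065 against vehicle. The other genes that rose from 20 to 500 µg/mL were NR5A2 (LRH-1, a regulator of bile acid and cholesterol genes; log2 0.59 ± 0.17), the core clock repressor NR1D1 (0.54 ± 0.098), the pregnane X receptor NR1I2 (0.39 ± 0.064) and ESRRA (0.33 ± 0.069). NR5A2 was at 2.98, 2.34 and 2.39 CPM at 20 µg/mL and at 3.9, 3.91 and 3.15 CPM at 500 µg/mL, which overlapped the vehicle range of 2.68 to 3.68 CPM. NR1D1 was at 15.7, 17 and 14.2 CPM at 20 µg/mL and at 24.4, 19.9 and 20.3 CPM at 500 µg/mL, against 18 to 19.6 CPM in vehicle.

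NR4A1 and PPARG were the receptor genes with the largest rise over the Poria doses, so the 250 bases before their start sites are shown here as RefSeq gives them (GRCh38.p14, plus strand, 5′ to 3′), with AGGTCA, the half-site that nuclear receptors bind, in capitals; both genes, and the motif, were chosen after values and matches had been seen.
NR4A1, chr12:52022582-52022831: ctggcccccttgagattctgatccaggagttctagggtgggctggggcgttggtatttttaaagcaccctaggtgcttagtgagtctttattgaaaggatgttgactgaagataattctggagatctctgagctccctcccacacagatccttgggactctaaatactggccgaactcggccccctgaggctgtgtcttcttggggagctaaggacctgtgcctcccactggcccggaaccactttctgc
NR4A1, chr12:52037465-52037714: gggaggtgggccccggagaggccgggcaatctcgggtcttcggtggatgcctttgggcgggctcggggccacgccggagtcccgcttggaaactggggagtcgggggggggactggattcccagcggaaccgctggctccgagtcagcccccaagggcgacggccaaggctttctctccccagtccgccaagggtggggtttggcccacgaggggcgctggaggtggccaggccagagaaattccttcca
PPARG, chr3:12287118-12287367: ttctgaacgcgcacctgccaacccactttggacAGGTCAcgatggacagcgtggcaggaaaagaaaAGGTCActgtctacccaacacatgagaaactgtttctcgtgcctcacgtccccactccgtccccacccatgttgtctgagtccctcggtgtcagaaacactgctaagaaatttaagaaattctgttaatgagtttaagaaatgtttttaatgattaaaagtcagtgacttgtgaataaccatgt
PPARG, chr3:12288810-12289059: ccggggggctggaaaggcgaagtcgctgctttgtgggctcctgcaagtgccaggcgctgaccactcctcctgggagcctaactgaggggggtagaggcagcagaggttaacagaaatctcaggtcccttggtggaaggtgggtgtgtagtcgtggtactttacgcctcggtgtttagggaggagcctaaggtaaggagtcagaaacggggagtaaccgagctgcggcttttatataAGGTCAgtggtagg
RefSeq has 6 windows for PPARG. AGGTCA was in 3 of them and not in the other 3; the third with a match overlaps the second one shown and holds the same site, so the 6 windows hold 3 separate sites. Neither of the 2 NR4A1 windows held AGGTCA. Windows were matched for 28 of the 31 symbols (69 windows; all but VDR, NR2F6 and NR4A2), and 14 motifs were searched in them on both strands. AGGTCA was in 8 of the 69 windows (11.6%), among those of ESRRG, NR5A2, PPARG, RARA and RARB, against 12.1% of all 35116 windows. Of the other genes that rose over the Poria doses, NR5A2 holds a match in 1 of 2 windows, and the windows of NR1D1 (1), NR1I2 (2) and ESRRA (1) hold none. The half-site TGACG of the cAMP element TGACGTCA, which contains it, was in 15.9% of the receptor windows and 21.2% of all windows. The other motifs searched were TGACGTCA itself, its variant TGCGTCA, the AP-1 site TGANTCA, the E-box CACGTG, the receptor half-site variant GGGTCA, the GC box GGGCGG, the TATA box TATAAA, the CCAAT box, the sequence GTGGGT, a pair of AGGTCA, the ROR element (which contains AGGTCA) and the CArG box. Their shares ran from 0% of the receptor windows for the pair of AGGTCA (0.0427% of all) to 47.8% for the GC box GGGCGG (42.6% of all).

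The receptor genes that fell with Poria include both thyroid hormone receptors, a retinoid X receptor and the glucocorticoid receptor. THRB, the main thyroid hormone receptor of hepatocytes, was at 35.1, 35.3 and 33.9 CPM at 20 µg/mL, 26.4, 24.4 and 24.6 CPM at 100 µg/mL and 21.9, 20.7 and 18.4 CPM at 500 µg/mL. The dose groups did not overlap, and the log2 change from 20 to 500 µg/mL was -0.69 ± 0.068 (adjusted p = 3.02e-12, edgeR). THRA was at 24.2, 22.5 and 21.6 CPM at 20 µg/mL and 17, 16.9 and 17.1 CPM at 500 µg/mL, a log2 change of -0.34 ± 0.072 (adjusted p = 9.69e-05). RXRA, the most widely shared heterodimer partner, was at 75.1, 66 and 64.7 CPM at 20 µg/mL, 60.2, 52.6 and 51 CPM at 100 µg/mL and 50, 47.2 and 42.3 CPM at 500 µg/mL. Here too the dose groups were separate, with a log2 change of -0.48 ± 0.059 (adjusted p = 2.53e-09, edgeR).

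NR2F2 was at 18.8, 18 and 19.3 CPM at 20 µg/mL Poria, 15.3, 15.3 and 16.1 CPM at 100 µg/mL and 14.3, 13.9 and 12.3 CPM at 500 µg/mL, a log2 change of -0.39 ± 0.074 (adjusted p = 2.06e-05, edgeR). NR3C1 was at 34.6, 29.9 and 29.4 CPM at 20 µg/mL and at 24.9, 22.4 and 22.4 CPM at 500 µg/mL, with no overlap and a log2 change of -0.35 ± 0.055 (adjusted p = 5.50e-07, edgeR). NR6A1 (-0.25 ± 0.071), NR2F6 (-0.20 ± 0.072), PPARA (-0.20 ± 0.062) and RXRB (-0.15 ± 0.052) completed the 9 that fell. The call of NR2F6 was lost without Poria 20 µg/mL replicate 2 (adjusted p = 0.117) or replicate 3 (0.0583) and without Poria 500 µg/mL replicate 3 (0.079), that of PPARA without Poria 500 µg/mL replicate 2 (0.0645), and that of RXRB without Poria 500 µg/mL replicate 1 (0.291) or Poria 20 µg/mL replicate 1 (0.05) or 3 (0.0617). RXRB was also not called with no filter on low counts (0.0791), with only the groups compared (0.0806) or in a regression on log dose (0.0959), nor NR2F6 in that regression (0.0768).

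Against vehicle, RORA was also called higher with Poria 500 µg/mL, with a log2 change of 0.50 ± 0.11 (adjusted p = 0.000189, edgeR). It was at 12.5, 14 and 15 CPM there, beside 9.91 to 11 CPM in vehicle. This level was not particular to Poria. At 500 µg/mL the RORA mean was 13.8 CPM with Poria, 13.2 with Atractylodes and 12.9 with peony. It was 12.4 with angelica, 12.3 with ginseng and 8.29 CPM with licorice. Over the extract groups the median log2 change of RORA against vehicle was 0.299, with 4 called higher and 1 lower. From 20 to 500 µg/mL of Poria RORA was not called, and its 20 µg/mL libraries were already at 11.4, 14.1 and 13 CPM. VDR was at 1.7, 1.12 and 0.963 CPM with Poria 500 µg/mL, below all vehicle libraries, with a log2 change of -0.58 ± 0.21 (adjusted p = 0.0178). That call was lost without Poria 500 µg/mL replicate 2 (adjusted p = 0.0929) or replicate 3 (0.124) and without vehicle replicate 2 (0.0598). Of the other calls against vehicle at this dose, NR1D1 was lost without Poria replicate 1 (0.0869), ESRRA and PPARA without replicate 2 (0.0504 and 0.093), and NR1D2 and NR2C2 without replicate 2 (0.0563 and 0.131), replicate 3 (0.0574 and 0.142) or vehicle replicate 3 (0.0847 and 0.0987). Poria 100 µg/mL replicate 1 stood apart from replicates 2 and 3 for NR2F6 (57.8 against 77.8 and 78.3 CPM) and VDR (0.719 against 1.62 and 1.51 CPM), and 9 of the 28 genes were called at 100 µg/mL without it. This library had the lowest total of the 60 libraries (20.9 M) and the highest mitochondrial share (15.165%, against 11.165% and 11.877% in replicates 2 and 3). The part of the total and of the mitochondrial share in its levels was not tested.

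**Figure D3:**
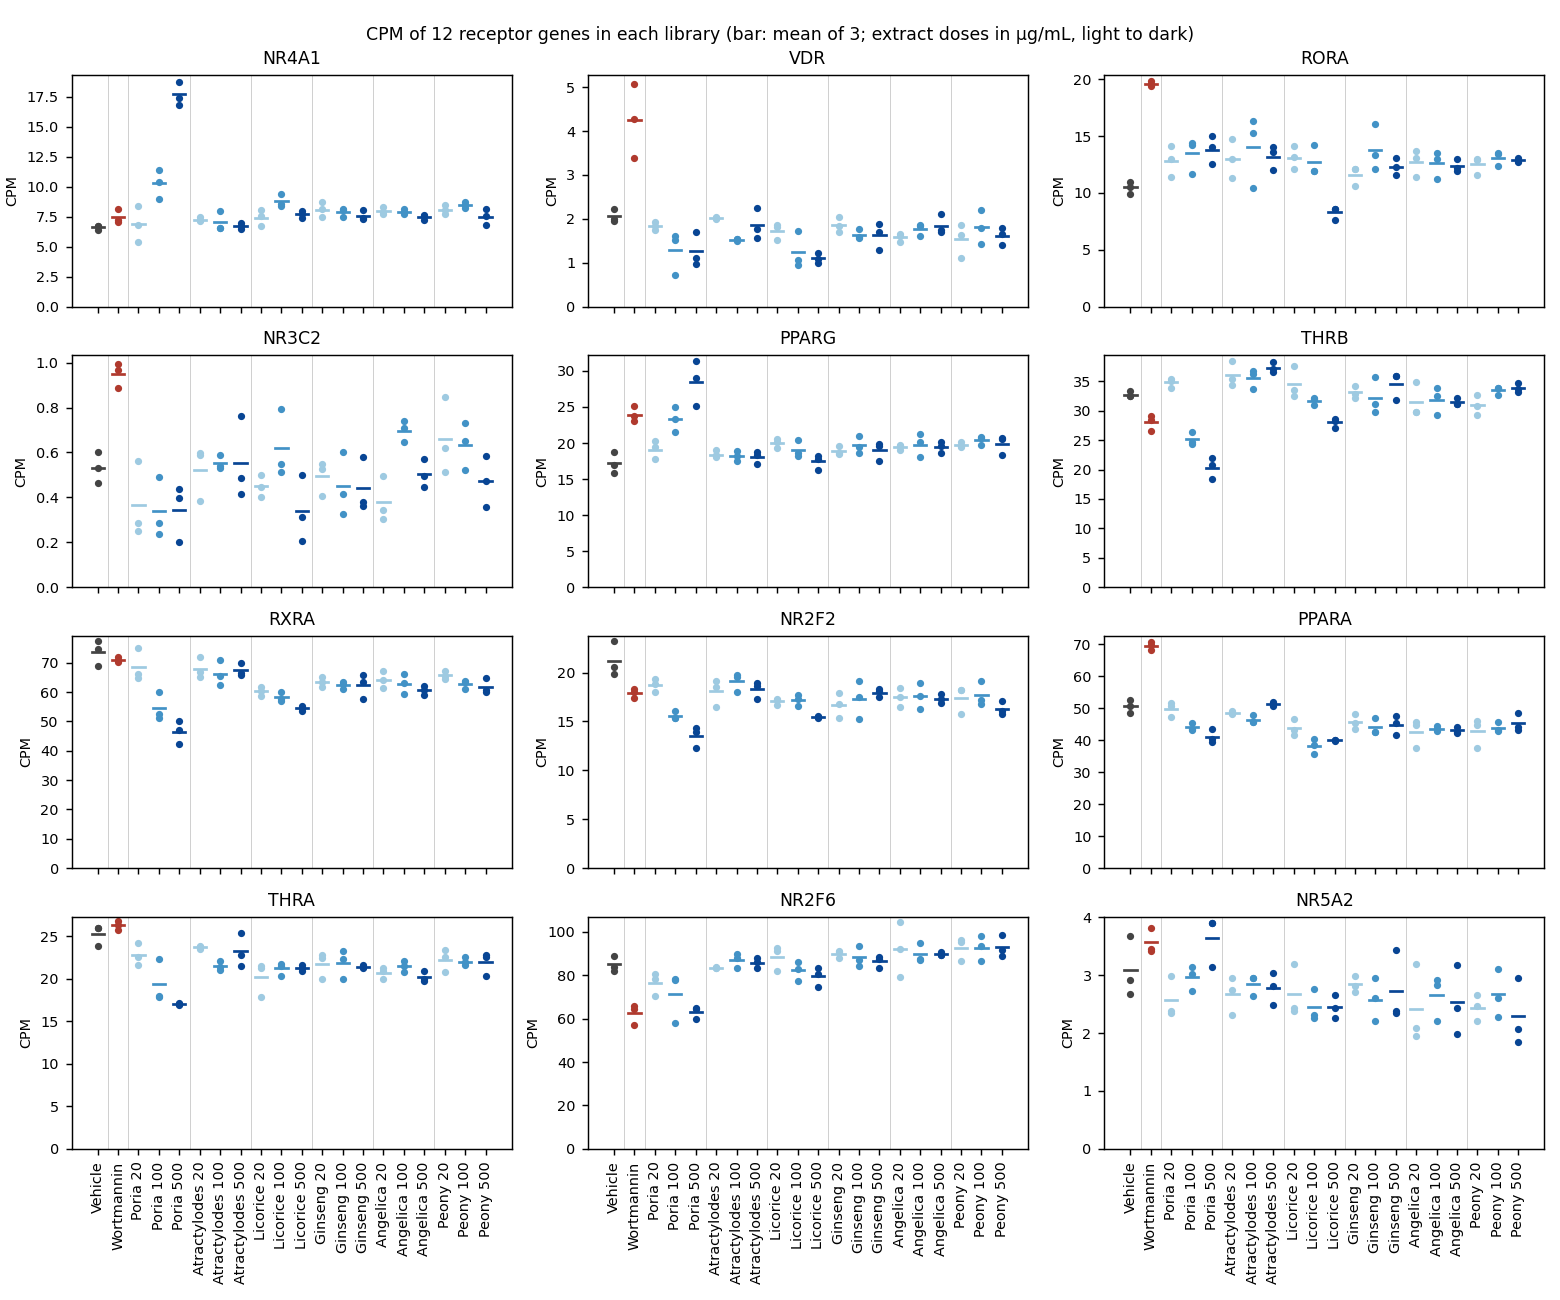
CPM in each library (points) and the mean of 3 (bar) in the 20 groups, for the 12 receptor genes that passed the test over all groups and had the largest change against vehicle; vehicle is grey, wortmannin red and the extracts blue, darker with dose. NR4A1 reaches 16.8 to 18.7 CPM only at 500 µg/mL Poria, and RORA drops to 7.66 to 8.62 CPM only at 500 µg/mL licorice.

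With licorice at 500 µg/mL 11 of the 28 receptor genes were called lower than vehicle and 0 higher (all genes 15.7% and 16.7%). By the same test 15 had an unadjusted p under 0.05, and DESeq2 called 11 in either direction. The median log2 change was -0.17 beside -0.01 over all genes. VDR was at 1.22, 1.08 and 1 CPM against 1.95 to 2.22 CPM in vehicle, a log2 change of -0.90 ± 0.21 (adjusted p = 0.000633, edgeR). NR2F2, at 15.6, 15.3 and 15.5 CPM, was below its vehicle range of 19.8 to 23.2 CPM, with a log2 change of -0.46 ± 0.071 (adjusted p = 7.34e-07). RXRA was at 53.5, 55.3 and 54.7 CPM (log2 -0.44 ± 0.058) and PPARA at 40, 39.6 and 40 CPM (log2 -0.35 ± 0.061), also below every vehicle library. Between 500 and 20 µg/mL licorice, however, NR2F2, RXRA and PPARA were not called, nor were THRA and NR1I2. At 20 µg/mL the NR2F2, RXRA and PPARA means were 17.1, 60.3 and 43.8 CPM, beside 21.2, 73.7 and 50.5 CPM in vehicle.

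RORA was lowest of all groups with licorice 500 µg/mL, at 8.59, 7.66 and 8.62 CPM, where licorice 20 µg/mL held 14.1, 13.2 and 12.1 CPM. Between these doses, within 1 set, the log2 change was -0.67 ± 0.12 (adjusted p = 1.67e-05, edgeR). Against vehicle it was -0.35 ± 0.12 (adjusted p = 0.0214), and that call was lost without licorice 500 µg/mL replicate 2 (0.0984) or vehicle replicate 3 (0.0947). PPARD (-0.29 ± 0.055), NR1I2 (-0.27 ± 0.065), THRA (-0.26 ± 0.069), NR2F1 (-0.24 ± 0.060), THRB (-0.23 ± 0.065) and RXRB (-0.16 ± 0.052) were the other genes lower than vehicle. The call of RXRB was lost without licorice 500 µg/mL replicate 1 (adjusted p = 0.0766), without vehicle replicate 3 (0.129) and with no filter (0.0558).

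Between 500 and 20 µg/mL licorice 9 of the 28 were called, 2 higher and 7 lower (all genes 21.3%, with 11% higher and 10.3% lower). THRB was at 37.5, 33.5 and 32.5 CPM at 20 µg/mL and 28.2, 28.6 and 27.1 CPM at 500 µg/mL, a log2 change of -0.31 ± 0.065 (adjusted p = 0.000277, edgeR). VDR (-0.66 ± 0.22), NR2F1 (-0.26 ± 0.060), RXRB (-0.24 ± 0.052), PPARG (-0.20 ± 0.068) and PPARD (-0.15 ± 0.056) fell with RORA and THRB, and NR1D1 (0.31 ± 0.099) and ESRRA (0.21 ± 0.070) rose. The VDR call was lost without licorice 500 µg/mL replicate 2 (adjusted p = 0.0652) or replicate 3 (0.0939) and without licorice 20 µg/mL replicate 1 (0.0806) or replicate 3 (0.0733). Leaving out single libraries also ended the calls of PPARG (highest adjusted p 0.155, without licorice 500 µg/mL replicate 2), PPARD (0.232, without licorice 20 µg/mL replicate 3), NR1D1 (0.106, without licorice 500 µg/mL replicate 2) and ESRRA (0.105, without licorice 20 µg/mL replicate 1). PPARD was also not called with the DESeq2 test (0.0564), with no filter (0.151), with only the groups compared (0.103) or in the regression on log dose (0.072).

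A joint test asked whether the change from 20 to 500 µg/mL was equal in the 6 extracts. It was unequal for 12 of the 28 receptor genes (edgeR, adjusted p under 0.05; all genes 35.1%): NR4A1, THRB, PPARG, NR1I2, RXRA, NR3C1, NR1D1, RORA, NR2F2, ESRRA, THRA and PPARA. For RORA the change was -0.67 in licorice and was not called in Poria, and PPARG changed by 0.65 in Poria and by -0.20 in licorice. THRB fell in both, NR1D1 and ESRRA rose in both, and NR1I2 rose in Poria and in peony. No receptor gene was called between these doses in Atractylodes, ginseng or angelica (all genes 0.0497%, 0.149% and 1.22%). In these 3 extracts edgeR gave an unadjusted p under 0.05 for 1, 0 and 1 of the 28, and DESeq2 called 0, 0 and 0.

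**Figure D4:**
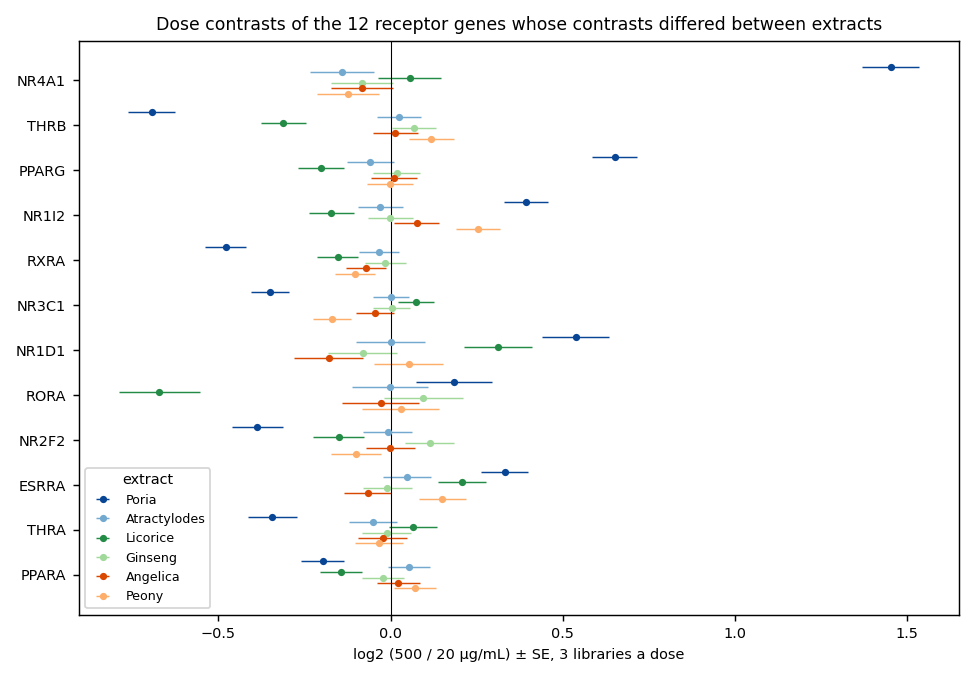
Log2 change from 20 to 500 µg/mL (± SE, 3 libraries a dose) in each of the 6 extracts for the 12 receptor genes whose change differed between extracts by the joint test. The Poria points lie farthest from 0 for NR4A1 (1.45) and THRB (-0.69), and the licorice point does for RORA (-0.67).

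In peony NR1I2, which senses drugs and bile acids and drives CYP3A4, was the 1 gene called between doses (all genes 3.49%). It was at 16.2, 16.4 and 15.3 CPM at 20 µg/mL and at 20, 19.3 and 18.4 CPM at 500 µg/mL, with no overlap and a log2 change of 0.26 ± 0.064 (adjusted p = 0.0145, edgeR). The call was lost without peony 20 µg/mL replicate 3 (adjusted p = 0.0661) or peony 500 µg/mL replicate 1 (0.111), and without peony 20 µg/mL replicate 1 the count was 2. Fitted on the groups compared alone, its adjusted p was 0.0958. In Poria NR1I2 went from 16.7, 15.5 and 16.4 CPM to 22.3, 20.8 and 17.1 CPM (adjusted p = 1.30e-06).

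Several receptor genes were called lower than vehicle in many extract groups. The exceptions were Atractylodes, where no receptor gene was called lower at any dose, and Poria 20 µg/mL, where only RARA was. NR2F2 and RXRA were called lower in 14 of the 18 extract groups each, PPARA and THRA in 11 each, NR1D2 (REV-ERB beta) in 10, NR3C1 in 9 and NR6A1 in 8. RXRB was called higher in 7, PPARG in 9 and NR4A1 in 8. Over the same 18 comparisons, 7.79% of the tests of all genes were called lower and 7.83% higher. In licorice RXRA was at 60.5, 58.6 and 61.9 CPM at 20 µg/mL, and in angelica at 67.3, 64.1 and 61.3 CPM, all below the vehicle range of 68.9 to 77.4 CPM. Over the ginseng, angelica and peony doses these genes were not called to change, NR1I2 in peony being the single call. With Atractylodes 500 µg/mL the PPARA, NR3C1 and NR6A1 means were 51.3, 34.4 and 87.8 CPM, beside 50.5, 33.3 and 87.1 CPM in vehicle. RXRA, NR2F2, THRA and NR1D2 were there at 67.4, 18.3, 23.2 and 14.9 CPM, beside 73.7, 21.2, 25.2 and 16.6 CPM in vehicle. Whether the low levels belong to the extracts, their sets or the vehicle libraries was not tested and cannot be told apart. All these comparisons share the same 3 vehicle libraries, and the vehicle has no set number. Summed over the 12 comparisons of 20 and 100 µg/mL with vehicle there were 80 calls in 336 receptor gene tests (23.8%, all genes 12.6%), and 49 without vehicle replicate 2. Over all genes the same sum was 24372, and 16017 without vehicle replicate 3.

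With ginseng 500 µg/mL the called genes were RXRA, NR2F2, NR1D2, NR6A1 and THRA, with log2 changes of -0.23 to -0.29, and RXRB at 0.15 (all genes 5.58% lower and 4.66% higher). With angelica 500 µg/mL THRA (-0.31 ± 0.069), NR3C1 (-0.28 ± 0.053), NR2F2, NR6A1, RXRA, NR1D1, NR1D2 and PPARA were called lower than vehicle. PPARG was called higher (0.19 ± 0.067), beside 9.41% of all genes lower and 9.51% higher. With peony 500 µg/mL NR2F2 (-0.39 ± 0.070) and NR3C1 (-0.38 ± 0.053) were called lower than vehicle, with THRA, NR1D2, RXRA and PPARA at -0.17 to -0.28. PPARG (0.20) and RXRB (0.15) were called higher, beside 9.98% of all genes lower and 9.68% higher. NR3C1 was at 26.4, 26.2 and 24.5 CPM with peony 500 µg/mL and at 33.9, 32.4 and 33.7 CPM in vehicle. Its peony libraries were separate from vehicle.

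Many of these smaller changes were lost in fits without 1 library, each with fewer libraries than the main fit. With angelica 500 µg/mL the rise of PPARG was lost in 4 of the 6 fits without 1 library (adjusted p up to 0.229, without vehicle replicate 1), with the DESeq2 test (0.0538), with a filter of 1 CPM (0.0617), with no filter (0.0984) and with only the groups compared (0.0789). NR1D1 was lost in 5 of 6 (up to 0.28, without angelica replicate 1) and with only the groups compared (0.0572), NR1D2 without angelica replicate 1 (0.0512) or vehicle replicate 3 (0.0932), and NR2F2 without vehicle replicate 3 (0.0701). With peony 500 µg/mL PPARG was lost in 4 of 6 (up to 0.195, without vehicle replicate 1), with no filter (0.0697) and with only the groups compared (0.0652), and RXRB in 5 of 6 (up to 0.172, without vehicle replicate 1) and with no filter (0.123). PPARA was lost in 4 of 6 (up to 0.166, without peony replicate 3) and THRA without peony replicate 3 (0.123) or vehicle replicate 2 (0.0674) or 3 (0.0963). With ginseng 500 µg/mL THRA, NR6A1 and RXRB were lost in 4 of 6 each (up to 0.127, 0.17 and 0.35), NR2F2 in 3 (up to 0.232) and NR1D2 in 2 (up to 0.0709). With only the groups compared RXRB (0.169) and NR2F2 (0.0525) were not called, nor was RXRB with a filter of 1 CPM (0.0544) or with no filter (0.134). RXRA was called in all 6 fits without 1 library.

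Atractylodes differed little from vehicle. edgeR called 0 of the 28 at 20 µg/mL (all genes 1.08%), 1 at 100 µg/mL (all genes 1.35%) and 0 at 500 µg/mL, where 4, 6 and 6 had an unadjusted p under 0.05, and DESeq2 called 0, 1 and 0. The 1 call was RORA, at 10.4, 15.3 and 16.3 CPM, which overlapped vehicle (log2 0.42 ± 0.11, adjusted p = 0.0367). It was lost without any 1 of the 3 vehicle libraries or without Atractylodes 100 µg/mL replicate 2 or replicate 3. At 500 µg/mL the fitted log2 changes of the 28 ran from -0.23 to 0.32.

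Extracts of 1 set were also compared at 500 µg/mL without the vehicle. Poria and Atractylodes differed in 14 of the 28 genes, 6 higher and 8 lower in Poria (all genes 42.9%, with 21.8% higher and 21.1% lower), led by NR4A1 (log2 1.52 ± 0.084), PPARG (0.78 ± 0.066), NR5A2 (0.52 ± 0.17), NR1D1 (0.47 ± 0.098), THRB (-0.75 ± 0.068) and NR3C1 (-0.45 ± 0.054). NR5A2 was at 2.49, 3.03 and 2.81 CPM with Atractylodes, and its call was lost without Atractylodes 500 µg/mL replicate 1 (adjusted p = 0.0557), those of NR6A1 and PPARA without Poria 500 µg/mL replicate 2 (0.0506 and 0.0727). Licorice and ginseng differed in 10, 1 higher and 9 lower in licorice (all genes 22.4%, with 11.7% higher and 10.7% lower), with RORA at -0.59 ± 0.12, THRB at -0.32 ± 0.066 and RXRB at -0.32 ± 0.052. The 1 higher gene, NR3C1 (0.15 ± 0.053), was not called by DESeq2 (adjusted p = 0.057), with a filter of 1 CPM (0.0522), with no filter (0.224), with only the groups compared (0.122) or in 3 of the 6 fits without 1 library (up to 0.325, without ginseng replicate 2). The calls of NR2F2 and PPARA were lost in 4 and 5 of those fits (up to 0.0642 and 0.168), and that of RXRA without ginseng replicate 2 (0.0586). Angelica and peony differed in 0 of the 28 (all genes 6.17%), with log2 values of -0.36 to 0.62. There edgeR gave 2 unadjusted p under 0.05 and DESeq2 called 0.

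By role, the steroid receptor NR3C1 was called lower with Poria 500 µg/mL (log2 -0.41) and higher with wortmannin (0.24). NR3C2 was called higher with wortmannin (0.85) and was at -0.51 with Poria 500 µg/mL (adjusted p = 0.218, edgeR); the difference between these treatments was not tested. ESR1 passed in no comparison. Among the retinoic acid receptors, RARA was called lower in 3 extract groups (log2 -0.25 to -0.30) and RARG in none. NR1H2, the ubiquitous liver X receptor, was called in 0 of the 19 comparisons with vehicle, at 10.5 to 12.9 CPM in vehicle, although it passed the test over the 20 groups (adjusted p = 0.0345, edgeR). NR1I3 was at 1.06, 1.02 and 0.762 CPM in vehicle and was called in no comparison.

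Other genes of these pathways were taken from lists. Over all genes, Poria 500 against 20 µg/mL called 43.5%, wortmannin against vehicle 46.3% and licorice 500 against 20 µg/mL 21.3%, and the counts of each list stand beside these. Of 17 other nuclear receptors 7 could be tested. Poria 500 against 20 µg/mL raised 1 and lowered 2: NR1H4, the bile acid receptor FXR, was among those lower and fell by 1.45 on the log2 scale (adjusted p = 5.03e-27, edgeR), and NR0B2, the corepressor SHP, rose by 0.48. Wortmannin raised 4 and lowered 1, with NR0B2 at 1.40 and NR1H4 at -0.76. Licorice 500 against 20 µg/mL raised 2 and lowered 4, led by NR1H4 at -0.46, NR0B2 at -0.27 and HNF4G at -0.21. The called genes were 42.9%, 71.4% and 85.7% of the 7 in Poria, wortmannin and licorice (all genes 43.5%, 46.3% and 21.3%). The median log2 values of the 7 were 0.07, 0.20 and -0.15 in these comparisons.

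All 20 coregulators were tested, and 45% were called with wortmannin, 40% with Poria and 25% with licorice (all genes 46.3%, 43.5% and 21.3%), shares near those of all genes in these comparisons. Against vehicle at 500 µg/mL, licorice, angelica, ginseng and peony called 65%, 55%, 30% and 30% (all genes 32.4%, 18.9%, 10.2% and 19.7%). There 11, 10, 6 and 5 were lower and 2, 1, 0 and 1 higher. Poria and Atractylodes called 45% and 0% against vehicle (all genes 47.6% and 0.889%). With wortmannin 4 rose and 5 fell, led by PPARGC1A, the coactivator PGC-1 alpha, at 1.24 ± 0.085, PRMT1 at -0.42 and HDAC3 at -0.37. Poria 500 against 20 µg/mL raised 3 and lowered 5, led by NCOA3 at -0.60 ± 0.058, PPARGC1B at 0.49 and NCOA2 at -0.32, and licorice raised 2 and lowered 3, led by PPARGC1B at 0.66, NCOA3 at -0.39 and TBL1X at -0.29. Of 15 clock partners 13 were tested, of which Poria called 84.6%, licorice 38.5% and wortmannin 61.5% (all genes 43.5%, 21.3% and 46.3%). Poria 500 against 20 µg/mL raised 3 and lowered 8, with the clock repressor BHLHE40 at 1.37 ± 0.13 and the output factors TEF at -0.93 and DBP at -0.59; licorice lowered 5 and raised 0, with BMAL1, a target of RORA and NR1D1, at -0.61 ± 0.085, PER3 at -0.58 and TEF at -0.32; and wortmannin raised 5 and lowered 3, with BMAL1 at 0.57, TEF at 0.35 and PER2 at -0.30.

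Of 13 retinoid handling genes 7 were tested, of which Poria called 57.1%, wortmannin 71.4% and licorice 28.6% (all genes 43.5%, 46.3% and 21.3%). Poria 500 against 20 µg/mL raised 3 and lowered 1, with RDH10 at 0.54 and RBP4 at -0.31, wortmannin raised 3 and lowered 2, with ALDH1A1 at -0.64, TGM2 at 0.59 and DHRS3 at 0.45, and licorice raised ALDH1A1 (0.64) and lowered TGM2 (-0.54). Of 24 known receptor targets 19 were tested, of which Poria called 57.9%, wortmannin 68.4% and licorice 68.4% (all genes 43.5%, 46.3% and 21.3%). Poria 500 against 20 µg/mL raised 7 and lowered 4, with the estrogen target TFF1 at 1.76 ± 0.39, DIO1, a thyroid hormone target, at -1.22 ± 0.050, and PLIN2, a PPAR target of lipid droplets, at 1.12 ± 0.11; TFF1 is low, at 0.233 and 0.747 CPM. Wortmannin raised 12 and lowered 1, led by CPT1A, a PPAR target of fatty acid oxidation, at 1.27 ± 0.074, CYP3A4 at 1.05 ± 0.36 and PDZK1 at 0.80. CYP3A4 is also low, with a median of 0.322 CPM and at least 10 counts in 24 of the 60 libraries. Licorice raised 6 and lowered 7, with CYP24A1, the vitamin D receptor's best known target, at 1.40 ± 0.072 (adjusted p = 1.78e-21, edgeR), PDZK1 at -0.80 and CYP8B1 at -0.64. CYP24A1 rose while VDR fell in that comparison. The list medians in Poria, wortmannin and licorice were 0.12, 0.32 and 0.01, beside -0.01, 0.01 and 0.00 over all genes.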

How the data were processed

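RNA of HepG2 cells was prepared with a directional library kit and sequenced as paired-end reads, per the labels' protocols. The submitters' processing notes name FastQC 0.11.9, Trim Galore 0.6.5, STAR 2.7.3a and RSEM 1.3.3 and the build hg38 (GRCh38); the annotation release is not given in the sources used here. The deposited table holds the authors' RSEM expected counts per gene, of which 76.1% of values above 0 are whole, and they were rounded. Of its 270 columns 60 were used and 210 were not. Ensembl identifiers gave a symbol for 57055 of 60675 genes; the rest took 0.04% of the counts. Coordinates and exon lengths are from GENCODE release 29.

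All 60 libraries were fitted with edgeR 4.0.16 (R 4.3.3, limma 3.58.1): TMM (factors 0.926 to 1.03), filterByExpr (minimum count 10, minimum total 15), 1 mean per group, glmQLFit with 40 residual degrees of freedom, glmQLFTest, Benjamini-Hochberg over 16093 genes, threshold 0.05. Log2 fold changes use a prior count of 0.125 and SE is the log2 change over the square root of F. DESeq2 1.42.0 was an alternative test. The procedure was checked on simulated counts, where genes with low counts were mostly not recovered. CPM uses plain library totals, and the floor of 3 counts covers counting error only.

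The receptor genes, lists and tests were chosen with earlier results of these data known. Values in every library are given for the 12 receptor genes past the test over the 20 groups with the largest change against vehicle, and for a few others chosen after their values were seen. In each comparison up to 6 called genes in each direction, and up to 3 genes of each list with the largest called change, were named; other called receptor genes are named to account for all members. Some called genes of the lists are counted but not reported here by name.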

Additional observations from a re-analysis of the deposited data

Results flagged for a closer look

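The change from 20 to 500 µg/mL differed between the 6 extracts for 12 of the 28 receptor genes (42.9%, all genes 35.1%). This was by the joint edgeR test with adjustment over all genes. The adjusted p was 1.57e-16 for NR4A1, 5.04e-10 for THRB, 2.01e-09 for PPARG, 1.39e-05 for NR1I2, 6.99e-05 for RXRA and 9.16e-05 for NR3C1. It was 0.000241 for NR1D1, 0.000396 for RORA, 0.00204 for NR2F2, 0.00748 for ESRRA, 0.0175 for THRA and 0.0431 for PPARA. Groups of 3 libraries are too small for the test of single libraries.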

How the results depend on the processing

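The main comparisons hold 115 calls of single receptor genes, and no alternative reversed one. All 115 were kept with DESeq2 size factors, 112 with the DESeq2 test, 106 when only the groups compared were fitted, 105 with no filter on low counts, 111 of 114 with a filter of 1 CPM and 22 of 25 in a regression on log dose. When each library was left out in turn 75 were kept throughout and 40 were lost at least once; each such fit has fewer libraries. Detection counts were 25 with a mean of at least 1 CPM or with 10 counts in all libraries, and 31 with 1 count in 3 libraries.

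Replicate numbers gave no clear pairing of the libraries. In 0 of 28 comparisons did every pair with the same number correlate above 0.1 (correlations of -0.24 to 0.21). In 5 each library correlated best with its own number: peony 20 µg/mL against vehicle, and the others within a set. Comparisons with vehicle cross sets, so a pairing within sets could not show there. Within sets the correlations ran from -0.124 to 0.206. The replicate block used the same numbers across all sets, so pairing within a set was not tested. With the replicate block the count for peony 500 against 20 µg/mL was 2 instead of 1, and all 115 calls were kept. That count was 0 when only the groups compared were fitted and 0 to 2 without 1 library. Atractylodes 500 µg/mL against vehicle had 1 call in place of 0 with no filter. Leaving out 1 library gave 1 to 7 calls for ginseng 500 µg/mL (6 with all), 5 to 7 for peony 500 µg/mL (8 with all) and 49 to 83 for the sum over the 20 and 100 µg/mL groups (80 with all). The causes of these changes were not tested.

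Over all genes, the count for Atractylodes 500 µg/mL against vehicle was 143, and 216 with DESeq2, 331 with no filter and 86 with only the groups compared. For 500 against 20 µg/mL it was 8 in Atractylodes (90 with no filter, 16 with only the groups compared), 24 in ginseng (114 with no filter, 13 in the regression), 196 in angelica (315 with no filter, 53 with only the groups compared, 96 in the regression) and 561 in peony (156 with only the groups compared, 350 in the regression). Angelica against peony gave 993, and 1540 with only the groups compared. Leaving out 1 library moved these counts by more than 1.5 times as well: to 12 to 364 for Atractylodes 500 µg/mL against vehicle, and for 500 against 20 µg/mL down to 0 in Atractylodes, 8 in ginseng, 110 in angelica and 319 in peony, and to 548 for angelica against peony. Low counts limit ESR1, NR3C2, NR1I3, RARG and VDR, whose SEs are the widest.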
